A study of Mus musculus with 2 samples.

Results

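The genes described here are those of the major histocompatibility complex (MHC) class II pathway and its regulators: the chain genes H2-Aa, H2-Ab1 and H2-Eb1, the peptide editor subunit H2-DMa, the invariant chain Cd74, and the regulators Ciita, Rfxank, Rfxap and Rfx5. They were chosen by gene symbol, as every probe set annotated to a single one of these 9 symbols, which gave 15 probe sets for 9 of the 12393 genes named in the table. The list was drawn up with earlier results of these arrays in view, so its values are a description and no test was made of them. The liver transcriptome of apolipoprotein E-deficient male mice was compared between a diet without and a diet with oleanolic acid, a plant triterpenoid. Both groups had the C57BL/6J background, were 2 months old and received a semipurified Western diet over 11 weeks. In the control group this diet was given alone, and in the other group it contained oleanolic acid at 0.01%, a dose of 10 mg/kg/day. RNA was pooled within each group and each pool was hybridized to 1 Affymetrix array, so there is no replicate of either diet, no p-value can be given and every difference describes these 2 arrays. The number of animals per pool is not given in the sources used here. Both groups lack apolipoprotein E, a deficiency that causes high plasma cholesterol, so neither array represents a wild-type liver.

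Class II molecules present peptides from endosomes to CD4+ T cells. The alpha and beta chains are assembled in the endoplasmic reticulum with the invariant chain, which blocks the peptide groove and directs the complex to endosomes, where H2-DM exchanges the last invariant chain fragment for a peptide. Transcription of these genes depends on the RFX complex (Rfx5, Rfxap and Rfxank), which binds the X box of their promoters beside NF-Y on the Y box, and on the coactivator CIITA, which docks on that assembly without binding DNA itself. In liver, class II is carried mainly by Kupffer cells, dendritic cells and B cells, and little by resting hepatocytes.

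The promoters of the chain genes with the lowest ratios, H2-Aa and H2-Eb1, are shown because they carry the X and Y boxes on which the regulators act, together with that of H2-Oa, a class II gene that was dim on both arrays. Each line gives 100 bases, from 110 to 11 bases before the annotated start, read 5′ to 3′ on the gene's strand, with the X core (CNNGNAAC) and the Y core (ATTGG) in capitals. Sequences are from RefSeq, build GRCm38.p6.
H2-Aa, chr17:34287834-34287933, minus strand: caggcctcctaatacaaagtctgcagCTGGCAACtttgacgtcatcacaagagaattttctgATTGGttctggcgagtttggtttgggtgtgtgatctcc
H2-Eb1, chr17:34305757-34305856, plus strand: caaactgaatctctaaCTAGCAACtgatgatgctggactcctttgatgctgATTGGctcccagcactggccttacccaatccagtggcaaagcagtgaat
H2-Oa, chr17:34092269-34092368, plus strand: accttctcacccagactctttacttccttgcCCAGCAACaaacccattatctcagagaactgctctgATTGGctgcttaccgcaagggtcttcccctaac

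In H2-Aa and in H2-Oa 28 bases lay between the cores, and in H2-Eb1 27 bases. The search covered the 250 bases before each start on both strands and asked for the X core followed by the Y core after 12 to 32 bases, a spacing chosen with these promoters in view. This pair was found in 236 of 32851 upstream windows, 0.718%, whereas the Y core alone was found in 33.8% and the X core alone in 33.3%. The 2 cores of a pair do not overlap. Upstream windows were at hand for 5 of the 9 members. None was at hand for H2-Ab1, Cd74, Ciita or Rfxap, so whether they hold the pair was not read. H2-Aa and H2-Eb1 held the pair, and Rfx5, Rfxank and both annotated starts of H2-DMa did not. Of 5 class II genes outside the members, 4 held it: H2-DMb1, H2-Ob, H2-Oa and H2-Eb2. The letters alone are a description of these windows and not a record of binding.

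**Figure D1:**
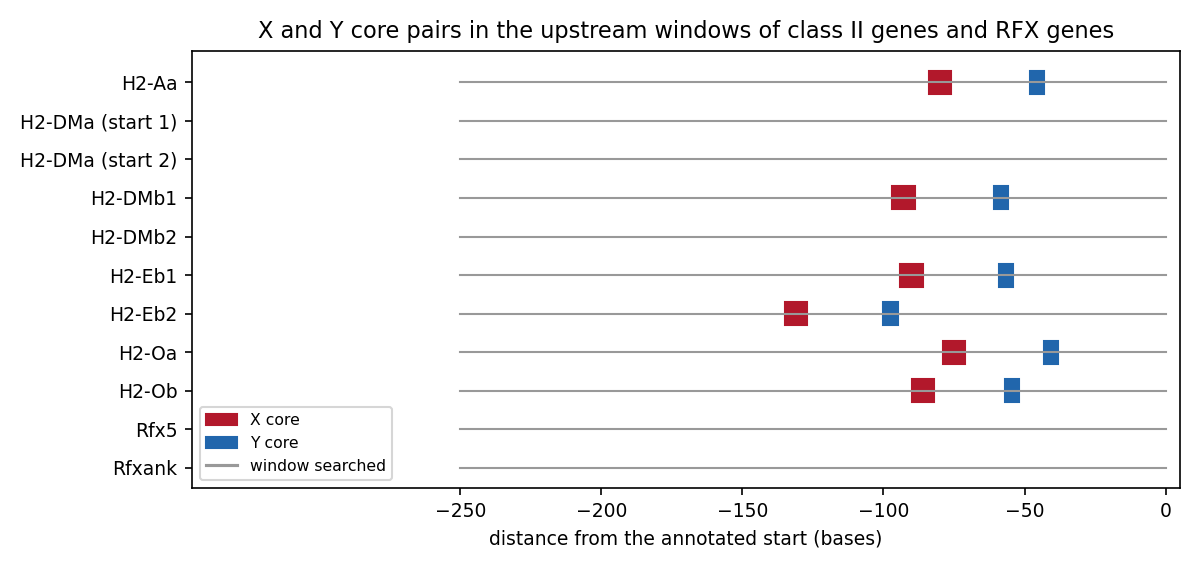
Positions of paired X cores (red) and Y cores (blue) in the upstream windows of class II and RFX genes, by distance in bases from the annotated start; grey lines are the windows searched. In H2-Aa the pair runs from 84 to 44 bases before the start and in H2-Eb1 from 94 to 55.

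Signals are linear MAS5 values. A probe set counted as measured where at least 1 array gave it a signal no lower than that array's median, 61.5 for the control diet and 59.3 for oleanolic acid. Lower signals were set to a floor at the 25th percentile, 10.7 and 10.1. Of the 15 probe sets of the members, 11 were measured, and 8 of the 9 genes had a measured probe set. Ciita had none. The error given with each log2 ratio is the probe set SD: the SD between the measured probe sets of a gene or, for a gene with 1, the pooled SD of genes of similar signal. It covers error within the arrays and not variation between mice.

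All 3 class II chain genes had lower signals on the oleanolic acid array. H2-Eb1, a beta chain, had a signal of 1095.2 on the control array and 766.5 on the oleanolic acid array. This is 1.43-fold lower with oleanolic acid, a log2 ratio of -0.51 (probe set SD 0.13), the lowest value among the members. C57BL/6 mice carry a deletion in the promoter of H2-Ea, the alpha chain that pairs with this beta chain. The 3 probe sets of H2-Ea had signals of 3.9 and 7.0, 8.6 and 2.3, and 0.4 and 0.7 on the control and oleanolic acid arrays, all below the floors.

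H2-Aa, the alpha chain of the A molecule, was read by 2 probe sets. The brighter gave 1986.1 units with the control diet and 1583.7 with oleanolic acid, and the dimmer 647.6 and 421.9. Both were lower with oleanolic acid, but not by the same amount, with log2 ratios of -0.33 and -0.62. The gene value was -0.47 ± 0.21 (SD, n = 2 probe sets), 1.39-fold lower. Both probe sets are of the types _x_at and _s_at, which can hybridize to related transcripts.

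H2-Ab1, the beta chain that pairs with H2-Aa, had a smaller difference. Its 3 probe sets had signals of 382.6 and 343.0, 313.3 and 287.6, and 178.2 and 162.3 on the control and oleanolic acid arrays. Their log2 ratios lay close together, at -0.16, -0.12 and -0.13, and the gene value was -0.14 ± 0.017 (SD, n = 3 probe sets), 1.10-fold lower. The probe set ranges of the partner chains did not overlap on these arrays. The probe sets of H2-Aa lay far apart, at -0.33 and -0.62, so the size of the difference between the chains is uncertain. The H2-Ab1 probe sets at -0.16 and -0.13 are also of the types _s_at and _x_at.

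Cd74, the invariant chain, gave a signal of 545.1 with the control diet and 402.8 with oleanolic acid. It was 1.35-fold lower, with a log2 ratio of -0.44 (probe set SD 0.17), and 4.71% of measured genes lay at or below it. H2-DMa, the alpha subunit of the peptide editor, gave 148.3 and 131.1. Its log2 ratio of -0.18 was smaller than its probe set SD of 0.25. Its partner genes H2-DMb1 and H2-DMb2 share probe sets that were not used, and the 1 probe set named for H2-DMb2 alone was dim, with signals of 12.5 and 11.1. H2-Oa, a subunit of the inhibitor of H2-DM, was also dim, with 22.3 and 16.7.

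**Figure D2:**
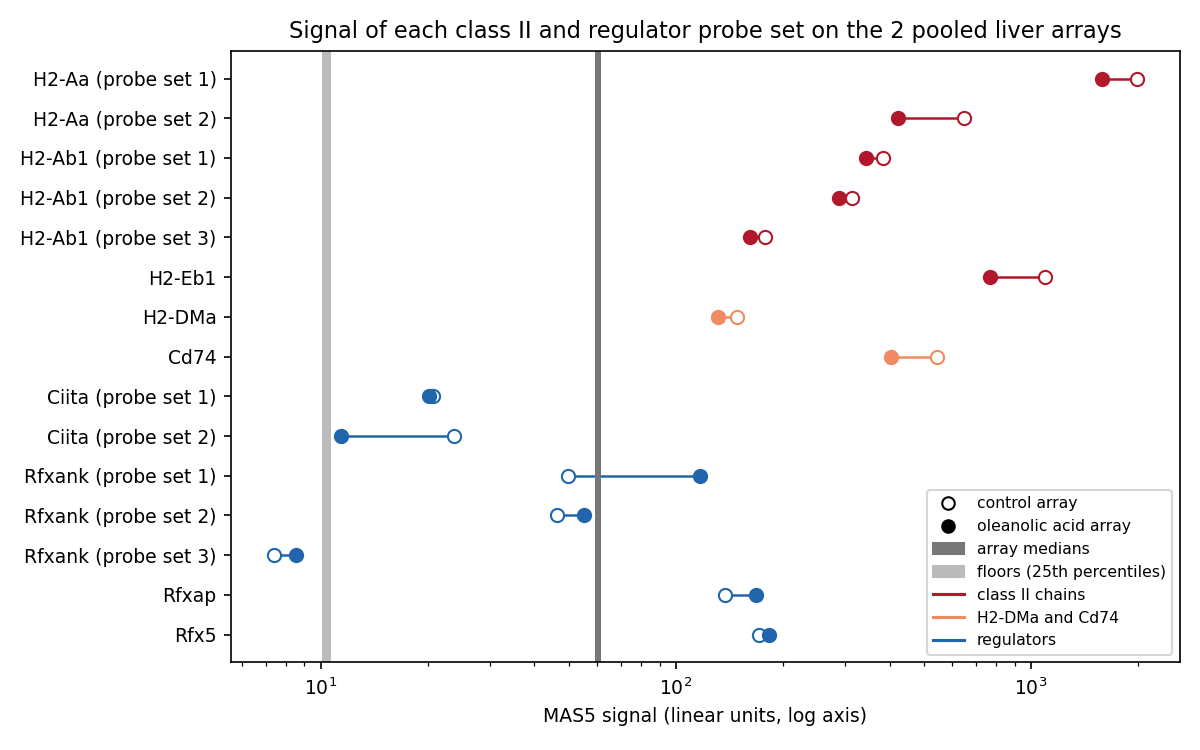
MAS5 signal (log axis) of each of the 15 probe sets on the control array (open circles) and the oleanolic acid array (filled circles), coloured by role; grey bands mark the floors and the medians of the arrays. The 8 probe sets of the chains, H2-DMa and Cd74 all lie to the left on the oleanolic acid array, from 131.1 to 1583.7, while the 3 measured probe sets of regulators lie to the right. Among these 3, that of Rfxank was measured through the oleanolic acid array alone.

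The regulators went the other way where they were measured, but Rfxank was measured only through the array where it was higher. Rfxap, the RFX-associated protein, gave a signal of 137.4 with the control diet and 168.8 with oleanolic acid. Its log2 ratio was 0.30 (probe set SD 0.25). Rfx5, the DNA-binding subunit, gave 172.1 and 183.6, and its log2 ratio of 0.093 was below its probe set SD of 0.25. Neither gene stood outside the spread of genes of its brightness, since 7.62% of measured genes of like mean signal lay at or above Rfxap and 29.9% at or above Rfx5.

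Rfxank, the ankyrin repeat subunit of RFX, had the highest value of the members, but it rested on 1 probe set. That probe set, an _s_at type, gave 49.7 units with the control diet and 117.1 with oleanolic acid. This is 2.36-fold higher, or 1.24 on the log2 scale (probe set SD 0.27). Its control signal was below the array median, so the gene counts as measured only through the array where it was higher, and a difference was built into that choice. The second probe set of Rfxank gave 46.3 and 55.2, or 0.25 on the log2 scale, and the third 7.4 and 8.5, below the floor on both arrays. With all 3 counted, the gene value was 0.47 ± 0.69 (SD, n = 3 probe sets). The probe sets therefore disagree on the size of the difference, and Rfxank had no value at all under a rule that asked for the median on both arrays or when _x_at and _s_at probe sets were left out.

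Ciita, the coactivator that sets class II levels in most cells, was too dim for a gene value. Its first probe set gave 20.7 units with the control diet and 20.2 with oleanolic acid, and the other 23.8 and 11.4. The first was nearly equal on both arrays and the second lower with oleanolic acid, both under the medians. With these dim probe sets counted, the mean log2 ratio was -0.55 ± 0.73 (SD, n = 2 probe sets), so no direction can be read from them.

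**Figure D3:**
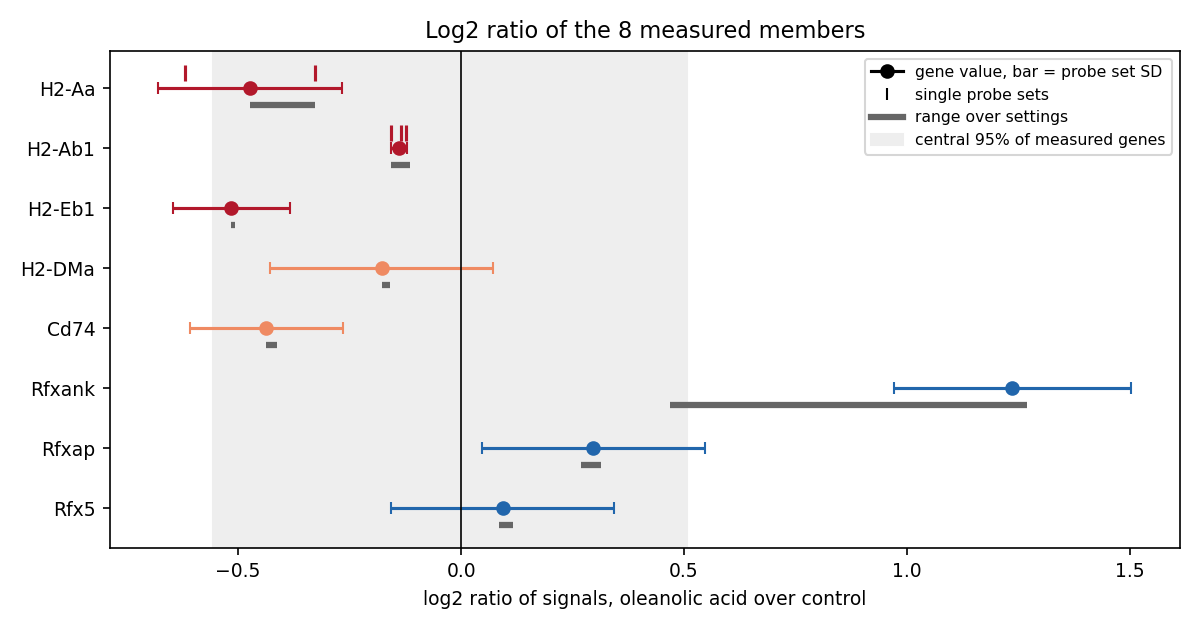
Log2 ratio, oleanolic acid over control, of the 8 measured members with the probe set SD as error bars, single probe sets as ticks above and the range over processing settings as grey bars below; the shaded area holds the central 95% of measured genes, -0.56 to 0.51. The 3 chains, H2-DMa and Cd74 lie below 0, from -0.51 to -0.14. Only Rfxank, at 1.24 and measured through the oleanolic acid array alone, lies outside the shaded area.

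As a group, 5 of 8 measured members had a log2 ratio below 0, where 49.7% of the 7137 measured genes did, and 3 lay above 0, where 50.2% did. Of the 3 above 0, Rfxank had passed through the oleanolic acid array alone. The 5 below 0 were the 3 chains, H2-DMa and Cd74, with a median of -0.44, and the 3 above 0 were the RFX subunits, with a median of 0.30, beside a median of 0.0012 over all measured genes. Where both arrays had to reach their median, Rfxank dropped out and the median of Rfxap and Rfx5 was 0.20. One member, H2-Eb1, was below -0.5, a size passed by 3.24% of measured genes, and none was below -1, which 0.631% passed. Rfxank alone was above 0.5 and above 1, sizes passed by 2.63% and 0.392%. No member was past 1.5 in either direction, the size that the submitters' design text used to select genes, which 0.392% of measured genes passed. The central 95% of measured genes lay between -0.56 and 0.51, so every member except Rfxank was inside it.

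Large ratios are rarer among bright genes than among dim ones, and the members differ in brightness. Measured genes were divided into 4 bands of equal size by mean signal. In the brightest band, 1785 genes, 1.01% had a log2 ratio at or below that of H2-Eb1 and 1.18% at or below that of H2-Aa. In the band below, 3.20% lay at or below Cd74 and 24.0% at or below H2-Ab1. In the band of H2-DMa 21.6% lay at or below its value. In the dimmest band 0.392% lay at or above Rfxank. It was measured only through the oleanolic acid array, so this rank was partly set by that choice.

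**Figure D4:**
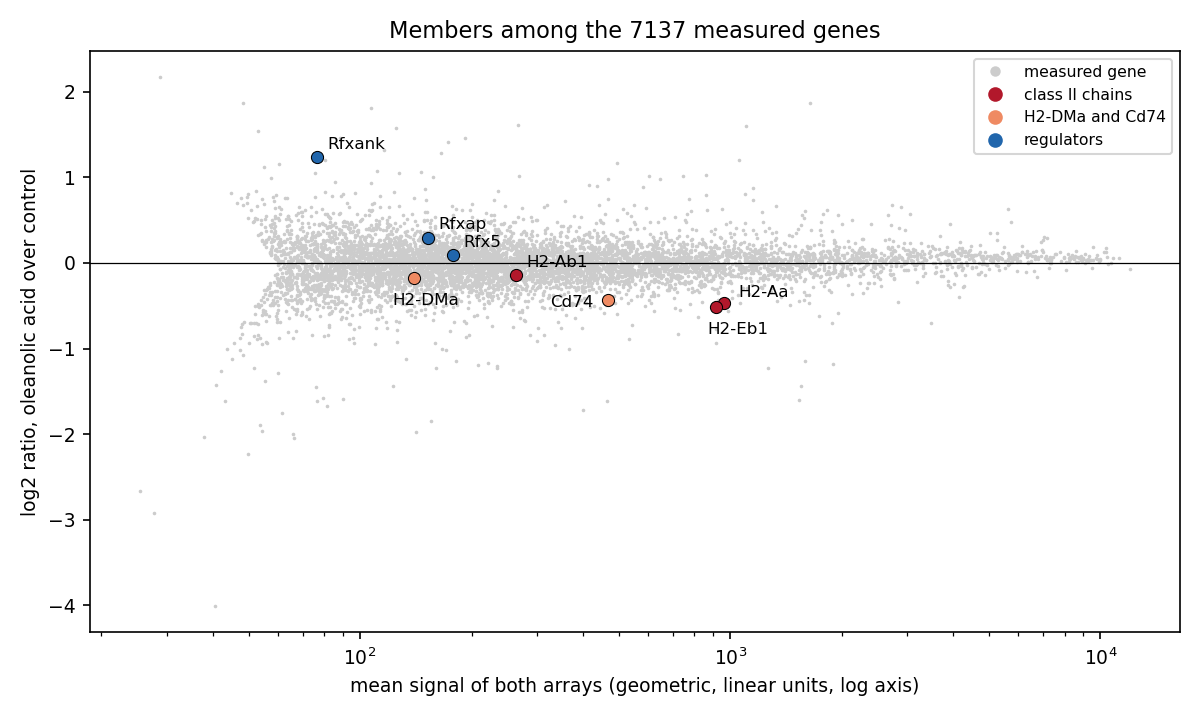
Log2 ratio, oleanolic acid over control, against mean signal (log axis) for the 7137 measured genes (grey) with the 8 measured members coloured by role. H2-Eb1 and H2-Aa lie at the lower edge of the cloud at their brightness. Rfxank, measured through the oleanolic acid array alone, lies above the cloud among dim genes.

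The other genes of the pathway were mostly close to 0. Of 8 endosomal processing genes, 5 were below 0 and 3 above, 8 of 8 lay within 0.5 of 0 and the median was -0.02. Most measured genes lay within 0.5 too, since 3.24% were below -0.5 and 2.63% above 0.5. Of the chains, H2-DMa and Cd74, only H2-Eb1 was past that size, so the count does not set the lists apart from them. Ifi30, a thiol reductase of endosomes, gave 754.9 units with the control diet and 606.6 with oleanolic acid, or -0.32 on the log2 scale (probe set SD 0.13). Ctss, cathepsin S, which trims the invariant chain, gave 1852.5 and 1520.0, or -0.29 (probe set SD 0.13). The highest values were those of the cathepsins Ctsh (0.14) and Ctsc (0.098). In the brightest band of measured genes, 3.42% lay at or below Ifi30, 4.54% at or below Ctss and 17.1% at or above Ctsh. The ranks of Ifi30 and Ctss were thus near that of Cd74 in its own band, 3.20%.

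Of the interferon-gamma axis, the main inducer of Ciita outside antigen-presenting cells, 9 genes were measured, with 5 below 0, 4 above and a median of -0.03. Gbp2, a guanylate-binding protein induced by interferon, was the only one past 0.5 in size, at -0.53 ± 0.34 (SD, n = 2 probe sets), followed by Jak2 (-0.20). The other 2 of the 4 largest were Irgm1 (0.064) and Igtp (-0.045), both interferon-induced GTPases. Ifng itself was below the floor on both arrays, with signals of 1.2 and 8.6.

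Among the 6 measured partners of RFX and CIITA at the promoter, 3 were below 0 and 3 above, with a median of -0.016. The acetyltransferase genes Crebbp (0.23) and Kat2b (-0.18) were at the ends, with the NF-Y subunit Nfya at 0.16 and the methyltransferase Ezh2 at -0.093. Nfya, with signals of 56.1 and 62.7, was measured through the oleanolic acid array alone, so a higher value was favoured by that choice. Where the median was asked of both arrays, the median of these partners was -0.042. The other RFX genes with a named probe set, Rfx1, Rfx2 and Rfx3, were dim. Of the costimulatory and turnover genes 2 were measured, Cd83 (0.056) and Cd86 (-0.053), which both lay near 0.

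Class I genes, which present cytosolic peptides, showed no shared direction in the main setting. Of 9 measured genes, 5 were below 0 and 4 above, and the median was -0.013. All 9 lay within 0.5 of 0, as did most measured genes. H2-K1 was at 0.011 ± 0.081 (SD, n = 4 probe sets) and H2-D1 at 0.092 ± 0.17 (SD, n = 5 probe sets). The probe sets of H2-K1 and most of those of H2-D1 are of the type _x_at. Without _x_at and _s_at probe sets H2-K1 had no value, and the H2-D1 probe set that remained was at -0.076. The class I median was then -0.13, with 6 genes below 0 and the others, B2m and Tap2, above. The lowest were the immunoproteasome subunit Psmb9 (-0.24), the peptide-loading chaperone Tapbp (-0.19), Psmb8 (-0.19) and the transporter Tap1 (-0.18).

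The H2 members lie together on chromosome 17. RefSeq (GRCm38.p6) orders 11 protein-coding genes from H2-DMa to H2-Eb1, of which 7 are not members. Of these, 4 were measured: Psmb9, Tap1 and Psmb8 were below 0, at -0.24 to -0.18, and Tap2 was above it at 0.18, with probe set SDs of 0.17 to 0.27. Tap1 has 4 named probe sets, of which 1 was measured. The neighbours' lowest value, -0.24, was nearer to 0 than those of H2-Aa and H2-Eb1 and below those of H2-Ab1 and H2-DMa. The regulators lie elsewhere, with Rfxap and Rfx5 on chromosome 3, Rfxank on chromosome 8 and Ciita on chromosome 16.

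Pan-leukocyte and macrophage markers were mostly lower on the oleanolic acid array, and in pooled tissue fewer cells of a type and less RNA per cell cannot be told apart. Of 7 pan-leukocyte markers, 7 were below 0, where 49.7% of measured genes were, and the median was -0.26. All 7 lay within 0.5 of 0, as did most measured genes. Their signals summed to 2857 with the control diet and 2298 with oleanolic acid. Ptprc, the leukocyte phosphatase CD45, gave 547.7 and 394.2, or -0.47 on the log2 scale (probe set SD 0.17), close to the values of H2-Aa and Cd74. The other low values were those of Cd53 (-0.37), Cd52 (-0.30) and Cd48 (-0.26).

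Of 13 measured macrophage and Kupffer cell markers, 12 were below 0, with a median of -0.13 and summed signals of 17585 and 16092. The scavenger receptor Marco was at -0.67 (probe set SD 0.25), the pore-forming protein Mpeg1 at -0.34, the mannose receptor Mrc1 at -0.25 and the growth factor receptor Csf1r at -0.18. The Kupffer cell lectin Clec4f (-0.13) and the complement gene C1qa (-0.028) were nearer to 0, and C1qc was at 0.11.

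Defining markers of B cells and dendritic cells were dim. The arrays name 12 of the listed B cell genes and 3 were measured, with summed signals of 484 and 191, and 3 were at the floor on both arrays (Cd79a, Blk and Cr2). Ighm (-1.97 ± 1.31, SD, n = 3 probe sets) and Jchain (-1.61) were lower with oleanolic acid and Cd22 was at 0.13. Ms4a1, the B cell surface protein CD20, had signals of 47.5 and 29.2 on its brighter probe set, while Cd79b, a subunit of the B cell receptor, was nearly equal at 40.6 and 41.2. On their brightest probe sets Cd37 had 52.0 and 36.7, Pax5 16.1 and 6.6, Fcer2a 14.9 and 8.4, and Ebf1 12.9 and 7.6. Jchain passed as measured through the control array alone. Of 10 dendritic cell genes 1 was measured, the transcription factor Irf8, with signals of 148 and 124 (-0.26 ± 0.11, SD, n = 2 probe sets), and Xcr1 and Ccr7 were at the floor on both arrays. The integrin Itgax, which marks dendritic cells, had signals of 53.2 and 38.0, the lectin Cd209a 39.3 and 23.7, and Flt3 18.3 and 6.3. In the other direction the integrin Itgae had 12.2 and 25.2, while Batf3 was nearly equal at 38.1 and 37.0. Irf4 had 10.3 and 13.8 on its brighter probe set and 7.2 and 2.2 on the other, with only the 13.8 above the floors. The 3 probe sets of Zbtb46 had 54.3 and 51.9, 24.1 and 40.1, and 10.1 and 10.5. The dim dendritic cell genes thus went in both directions, with Itgax, Cd209a and Flt3 lower. Of 9 T and NK cell genes 1 was measured, Ms4a4b at -0.85 (signals of 69.5 and 38.5), and Cd4, Cd8a and Ncr1 were at the floor on both arrays. Ms4a4b was measured through the control array alone, its log2 ratio was -0.23 with the floor at the array median, and it had no value where the median was asked of both arrays.

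Exocrine pancreas markers, which do not belong to liver, were lower with oleanolic acid in 7 of 7 measured genes, with a median of -1.76 and summed signals of 751 and 223. Prss2 (-2.04), Cpb1 (-2.03), Ctrb1 (-1.96) and Cela3b (-1.76) had the largest differences. These 7 genes were measured through the control array alone, so a lower value was built into the choice. Their median was -0.85 with the floor at the array median, and none had a value where the median was asked of both arrays. The part of leukocyte content or of non-liver tissue in the lower class II signals was not tested.

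Hepatocyte and sinusoidal endothelial markers did not share the lower direction of the leukocyte, macrophage and Kupffer cell lists. The 8 measured hepatocyte markers had summed signals of 62204 and 62414 and a median of 0.051, with albumin at 8540 and 8950, so the genes that define liver were bright on both arrays. Tat (-0.70), Hnf4a (0.22), Fgb (0.17) and Cps1 (-0.086) had the largest values. The 8 sinusoidal endothelial markers had a median of 0.045, with 6 above 0 and 2 below, and summed signals of 3116 and 3213. Of these, Kdr (-0.32), Clec4g (0.12), Stab1 (0.090) and Fcgr2b (0.059) were farthest from 0.

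**Figure D5:**
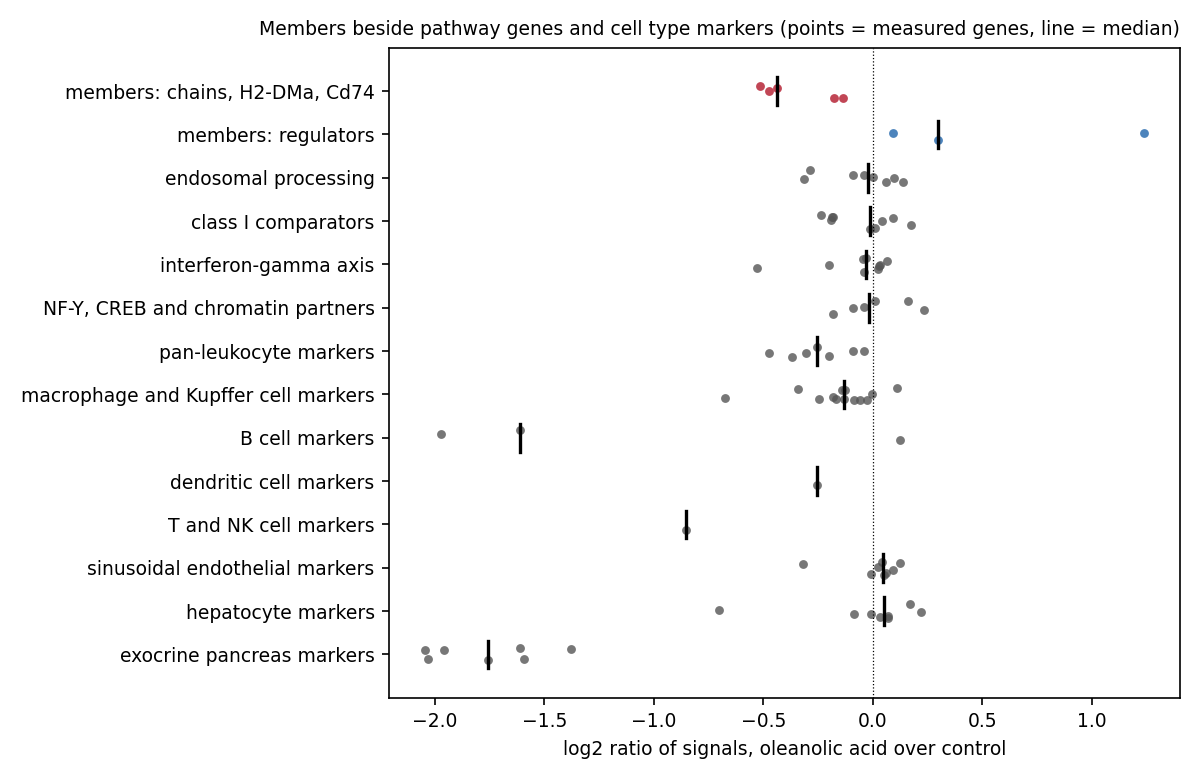
Log2 ratio, oleanolic acid over control, of the measured members (red and blue) and of the measured genes of pathway and cell type lists (grey); black lines are medians. The median of the chains, H2-DMa and Cd74 is -0.44, beside -0.26 for pan-leukocyte markers, -0.13 for macrophage markers and -0.013 for class I genes. Without _x_at and _s_at probe sets the median of the chains, H2-DMa and Cd74 was -0.31 and that of class I genes -0.13.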

How the data were processed

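Pooled liver RNA of 1 control and 1 oleanolic acid group was hybridized to 2 arrays. Groups were taken from the sample titles, because the growth protocol of the control also names oleanolic acid. The authors deposited 1 linear intensity per probe set, called a signal here. MAS5, in a version not given, produced it according to the submitters' processing notes. Their means after trimming 2% at each end were 300.1 on both arrays. The table used here has no detection calls. Array number limits the precision.

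Of 22690 probe sets, 64 were controls, 20380 carried 1 gene symbol in the platform annotation, 691 several and 1555 none; only those with 1 were used. All 9 members matched RefSeq GRCm38.p6 by gene identifier. Floors and the measured call are given with the results. A gene's log2 ratio, oleanolic acid over control, was averaged over its measured probe sets, and its signal is their geometric mean. The pooled probe set SD was 0.20 over 2427 genes with several measured probe sets, and 0.27, 0.25, 0.17 and 0.13 in 4 bands of rising signal.

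Members, lists and settings were chosen with earlier results of these data known. Besides the members, listed H2 genes and, per list, up to 4 genes farthest from 0 were named; others named were chosen after their values were seen. The calculation was checked on simulated data, with Python 3.11.15, numpy 2.4.6 and pandas 2.3.3. Floors, probe set choice and normalization were varied in 10 alternatives.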

Additional observations from a re-analysis of the deposited data

How the results depend on the processing

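H2-Eb1, H2-DMa, Cd74 and H2-Ab1 stayed below 0, and Rfxap and Rfx5 above 0, in the main setting and all 10 alternatives, with ranges of -0.51 to -0.51, -0.18 to -0.16, -0.44 to -0.41, -0.16 to -0.12, 0.27 to 0.31 and 0.086 to 0.12. H2-Aa had a value in 10 of these 11 settings, from -0.47 to -0.33, and Rfxank in 9, from 0.47 to 1.27. With the floor at the array median Rfxank was at 0.93 and 0 members were above 1. With all probe sets counted as measured 2 members were below -0.5, Ciita and H2-Eb1, 0 were above 0.5 and 0 above 1. This setting takes the median of all genes to -0.08, because genes at the floor on both arrays get the log2 ratio of the floors, -0.083. When both arrays had to reach their median, or without _x_at and _s_at probe sets, Rfxank dropped out and 0 members were above 0.5 and 0 above 1. No paired analysis was possible because each group has 1 array. Of the other values recomputed, 321 moved by less than the probe set SD or within 1.5 times and 22 by more. List medians were judged against the pooled SD of 0.20, so a median near 0 could change sign and still be among the 321. The hepatocyte marker median did so, from 0.051 in the main setting to -0.0072 when centred by intensity. That of the partners of RFX and CIITA went from -0.016 to 0.011 with quantile normalization. The median of the costimulatory and turnover genes went from 0.0015 to -0.033 with all probe sets counted as measured, a change that was also below 0.20. With 1 pooled array per diet, mouse-to-mouse variation is unknown, and the depth of signal over background leaves Ciita unread.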
